A study of Mus musculus with 6 samples.

Results

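The UBE2 genes encode the ubiquitin-conjugating enzymes, and they were described here in mouse primary hepatocytes that overexpressed the RNA-binding protein HuR. Members were all protein-coding gene models whose name starts with Ube2, which gave 37 of 54118 gene models. Of these, 36 carry the conjugating-enzyme domain class in the deposited annotation. The exception is Ube2cbp, which encodes a binding protein of the UBE2C enzyme and not a conjugating enzyme. Hepatocytes were obtained from C57BL/6 mice by collagenase perfusion of the liver and then infected overnight with an adenovirus, either for beta-galactosidase (beta-Gal, the control) or for HuR. Both groups thus carried a virus, and each was sequenced as 3 samples. The labels give no viral dose, promoter or number of mice. The labels do not state whether samples of one group were separate cultures or animals. The p-values therefore reflect only the variation among these samples, which may be technical.

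Ubiquitin is passed along a cascade. An activating enzyme charges it, a conjugating enzyme carries it on a catalytic cysteine, and a ligase brings the charged enzyme to the substrate. The conjugating enzyme often decides which kind of chain is built, and thereby whether a protein is sent to the proteasome, moved or used as a signalling platform. A few members carry NEDD8 or ISG15, small proteins related to ubiquitin. In liver, these enzymes serve turnover of metabolic enzymes and the clearance of misfolded secretory proteins from the endoplasmic reticulum.

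The deposited unit is FPKM, in which reads are divided by the length of the gene model and by a factor for each library. Whole reads recovered from the FPKM values summed to between 15413306 and 17108184 per library. The factor did not follow these sums. HuR replicate 1 summed to 15902608 reads and HuR replicate 3 to 15413306. Yet 1 read in a 1-kb model corresponds to 0.0664 FPKM in HuR replicate 1 and to 0.0641 FPKM in HuR replicate 3. The deposited FPKM of HuR replicate 1 are thus high relative to its reads in genes. Elavl1, which encodes HuR, was at 5.45, 5.91 and 5.62 FPKM in beta-Gal and at 2434, 1662 and 1709 FPKM in HuR, so the overexpressed gene matched the label of all 6 libraries. Viral and endogenous Elavl1 reads cannot be told apart here. All 8 hepatocyte markers were detected in every library, with summed FPKM of 17325 to 17680 in beta-Gal and 18556 to 19802 in HuR. Most of this sum was Alb, with means of 13387 and 14857 FPKM. Single markers moved in both directions. From beta-Gal to HuR, mean FPKM went from 27.4 to 42.6 for Tat and from 1.41 to 3.37 for Pck1. It went from 28.9 to 18.5 for Cps1 and from 677 to 632 for Cyp2e1. Summed markers of other liver cells stayed low, at 3.07 to 5.08 FPKM for 6 endothelial markers and 0.523 to 2.28 FPKM for 6 Kupffer cell markers. The endothelial sum was at 3.07 to 3.89 FPKM in beta-Gal and at 4.24 to 5.08 FPKM in HuR, without overlap. The 6 stellate and 5 lymphocyte markers summed to at most 0.195 FPKM, with Nkg7 at 0 in all libraries. The 5 cholangiocyte markers summed to 138 to 151 FPKM in beta-Gal and 180 to 198 FPKM in HuR, nearly all of it Spp1, while Krt7, Krt19 and Epcam were at or below 0.189 FPKM in every library. The part of these other cells in the UBE2 results was not tested. In bulk RNA, fewer cells of a type and less RNA per cell cannot be told apart.

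More UBE2 genes were lower than higher in HuR, and the changes were moderate. Genes were tested where 3 or more of the 6 libraries reached an FPKM of 1, which kept 29 members. Of these, 4 rose and 12 fell at a limma adjusted p below 0.05, computed on log2(FPKM + 1) and adjusted over all 11281 tested genes. Ube2g2, Ube2n and Ube2b were among those that rose, and the largest falls were those of Ube2g1, Ube2e3, Ube2q2 and Ube2d3. Log2 differences (HuR minus beta-Gal) ran from -0.93 to 0.37, and no tested member reached an absolute difference of 1 on this scale. The members that rose made up 13.8% of those tested, against 20.7% among all tested genes and 20.9% of 9696 protein-coding ones. The members that fell made up 41.4%, against 24.8% and 27.4%. The median log2 difference was -0.18 for the members and -0.01 for all tested genes. In 4 members all HuR libraries lay above all beta-Gal libraries and in 15 all lay below, against 27.4% and 30.7% of all tested genes. The 15 include Ube2v2, the 1 tested member that passed the filter through the beta-Gal libraries alone. The median mean FPKM was 11.9 among tested members and 6.48 among all tested genes.

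The balance between rises and falls depends on how libraries are scaled to each other. Under TPM scaling, where each library sums to a fixed total, the median of all tested genes moved to -0.11 on the log2 scale. There 3 members rose and 17 fell, while 13.7% of all tested genes rose and 33.0% fell. Higher genes made up 29.3% of all calls against 45.4% in the deposited scaling. With all members summed, beta-Gal was at 498, 497 and 497 FPKM and HuR at 499, 470 and 459.5 FPKM. HuR replicate 1 lay above the beta-Gal libraries and the other HuR libraries lay below them, so the summed level did not separate the groups in the deposited scaling. The place of HuR replicate 1 depends on its scaling factor, which is high for its reads in genes. Whether the sum separates the groups under another scaling was not tested.

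**Figure D1:**
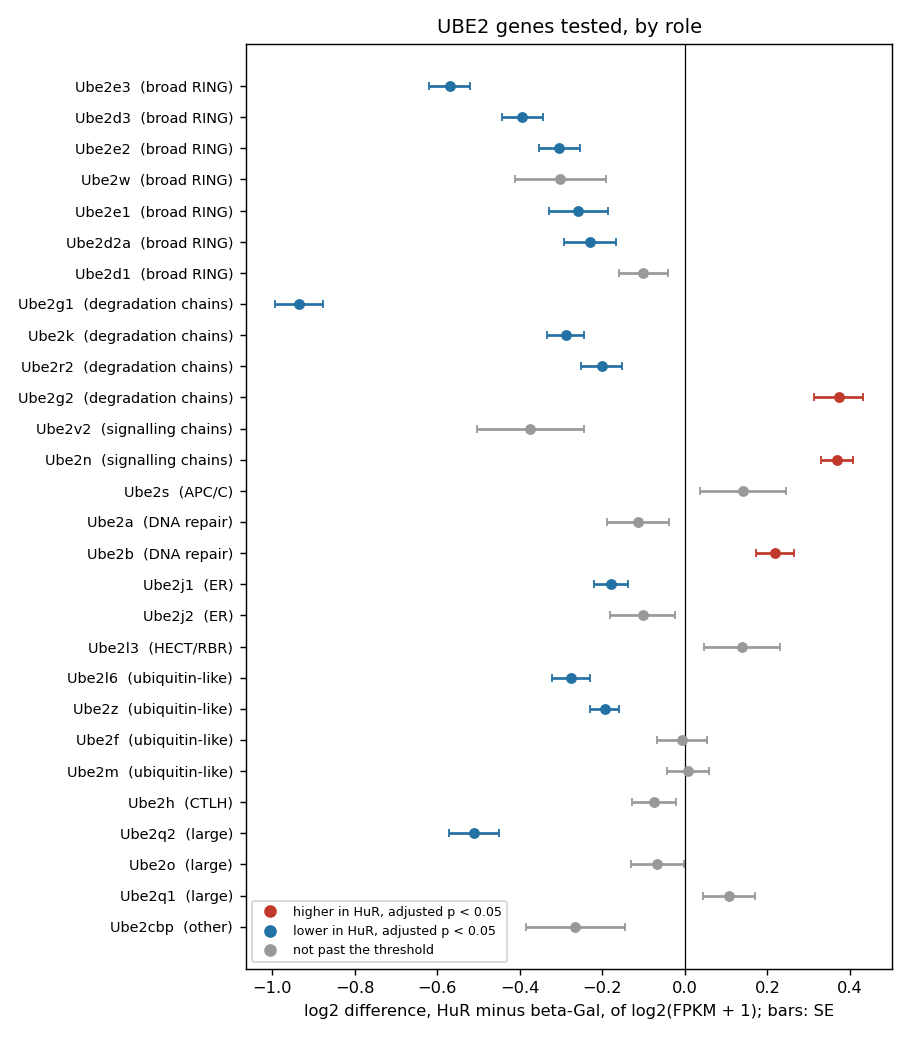
Log2 difference (HuR minus beta-Gal, of log2(FPKM + 1)) with its standard error for 28 tested UBE2 genes, grouped by role. Red marks 3 genes that rose, blue the 12 that fell and grey the 13 that did not pass an adjusted p of 0.05, and Ube2g1 lies farthest from 0 at -0.93.

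HuR binds U-rich and AU-rich stretches of mRNA, so the 3' UTRs of the members were searched for 3 such motifs on the transcript strand, in 1 representative GENCODE transcript per gene. Written as DNA, the first motif was ATTTA. The second was TATTTAT, in which the first is contained, and the third was TTTTTTT. The following stretches of 30 bases show the longest T run in the 4 members with the largest falls and the matches in 3 of the members that rose, Ube2n with both kinds, with the matched bases in capitals.
Ube2g1, chr11:72686329-72686358, plus strand: cattccagTTTTTTTTTTTTTTagttctgt
Ube2e3, chr2:78921238-78921267, plus strand: taattgtactaTTTTTTTcccctgtgcctg
Ube2q2, chr9:55207415-55207444, plus strand: ggttgggTTTTTTTTTTTTTTTgattttat
Ube2d3, chr3:135465479-135465508, plus strand: agattcagaaaTTTTTTTaaaaactggagc
Ube2g2, chr10:77645896-77645925, plus strand: ttattcatttgTATTTATtaaatgaaaaaa
Ube2n, chr10:95543180-95543209, plus strand: tactgagtgagTATTTATaaactggctctg
Ube2n, chr10:95543224-95543253, plus strand: atcaatatctcTTTTTTTTcttaagcctcc
Ube2b, chr11:51986434-51986463, minus strand: tcctgtttgtaTTTTTTTccaagtgtataa
Coordinates are on GRCm38. The T runs were 14 bases long in Ube2g1, 15 in Ube2q2, 8 in Ube2n and 7 in Ube2e3, Ube2d3 and Ube2b. Members that were not called also held long runs, of 20 bases in Ube2h, the longest of any tested member, 11 in Ube2d1 and 10 in Ube2m. A match describes these letters only and is not a measured binding site.

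TTTTTTT was present in the 3' UTRs of 8 of the 12 members that fell, 2 of the 4 that rose and 18 of the 28 tested members with an annotated 3' UTR. It was present in 40.1% of 9540 tested protein-coding genes, whose 3' UTRs differ in length. Of these, it was in 50.3% of those that fell and 34.9% of those that rose. ATTTA was present in 26 of the 28 members and 64.7% of those genes, and TATTTAT in 7 of 28 members and 25.97% of those genes. By direction, TATTTAT was present in 2 of the 12 members that fell and 2 of the 4 that rose. Among those genes it was present in 32.4% that fell and 24.2% that rose. In windows of equal length, the last 300 bases of the 3' UTR, TTTTTTT was found in 7 of 27 members (25.9%) and 17.6% of 7537 genes. By direction it was in 4 of the 12 members that fell and 0 of the 4 that rose, against 16.9% and 19.1% of genes. ATTTA was found there in 48.1% of members and 44.1% of genes, and TATTTAT in 3.70% and 9.83%. In these windows, 8 of the 12 members that fell and 3 of the 4 that rose held ATTTA, against 49.2% and 42.1% of genes. Of the 11 members not called, 2 held ATTTA there, against 41.8% of genes. For TATTTAT the counts were 0 of the 12 and 1 of the 4, against 9.45% and 12.7% of genes. Members also had longer 3' UTRs, with a median of 1510 bases against 916 in all these genes.

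The broad-range enzymes of many RING ligases accounted for 5 of the 12 falls. UBE2D enzymes start chains on a wide range of substrates. Ube2d3 was at 13.0, 13.2 and 13.2 FPKM in beta-Gal and at 10.4, 9.63 and 9.33 FPKM in HuR. It fell by 0.39 on the log2 scale (SE 0.05, adjusted p = 0.00109), with no overlap between groups. Ube2d2a was at 30.7, 32.1 and 33.0 FPKM in beta-Gal and at 29.3, 26.9 and 25.1 FPKM in HuR. It fell by 0.23 (adjusted p = 0.0238), but the adjusted p was 0.0726 and 0.0817 without beta-Gal replicates 2 and 3, and 0.0609 and 0.0572 without HuR replicates 2 and 3. The call of Ube2d2a also ended with no filter (0.0506). Ube2d1, the least abundant of the expressed UBE2D genes, was at 3.03 to 3.21 FPKM in beta-Gal and 2.74 to 2.97 FPKM in HuR, and its difference of -0.10 did not pass (adjusted p = 0.206). Ube2d2b, which lies inside the locus of Evi5 on the other strand, had 1 to 7 reads per library. Ube2dnl1 and Ube2dnl2 had no read in any library.

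All 3 UBE2E genes fell. UBE2E enzymes carry an extended N terminus and mostly attach single ubiquitins. Ube2e3 (chromosome 2, 78868124 to 78921293) was at 7.20, 7.29 and 7.12 FPKM in beta-Gal and at 4.71, 4.38 and 4.50 FPKM in HuR. It fell by 0.57 on the log2 scale (SE 0.05, adjusted p = 2.48e-04), and the groups lay far apart relative to their spread. Ube2e2 was at 9.72, 10.6 and 9.93 FPKM in beta-Gal and at 8.09, 8.02 and 7.80 FPKM in HuR. It fell by 0.30 (adjusted p = 0.00302), with every HuR library below every beta-Gal library. Ube2e1 was at 5.80, 5.84 and 5.22 FPKM in beta-Gal and at 4.38, 4.27 and 4.96 FPKM in HuR. It fell by 0.26 (adjusted p = 0.0249), but the adjusted p was 0.0813 and 0.0859 without beta-Gal replicates 1 and 2, and 0.0515 and 0.0716 without HuR replicates 1 and 2. The call of Ube2e1 also ended with no filter (0.0562) and with median centring (0.054). Ube2e1 shares its locus with Nkiras1 on the opposite strand, and whether reads were counted by strand is not stated, so reads of the overlap are uncertain. The 3 genes summed to 22.9 ± 0.741 FPKM in beta-Gal and 17.0 ± 0.318 FPKM in HuR (SD, n = 3 each). Ube2w, which tags the N termini of proteins, was at 4.37 to 5.39 FPKM in beta-Gal and 3.19 to 4.35 FPKM in HuR. Its difference of -0.30 did not pass (adjusted p = 0.0648), but passed without HuR replicate 1 (0.0329).

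The enzymes that build proteasome-directed chains moved in opposite directions. Ube2g1 (chromosome 11, 72607283 to 72686481), which extends chains on substrates of cullin ligases, was at 17.2, 17.7 and 18.6 FPKM in beta-Gal. In HuR it was at 9.28, 9.01 and 8.23 FPKM. Its mean was 50.3% lower, the largest change of any tested member (log2 difference -0.93, SE 0.06, adjusted p = 7.57e-05). Its close relative Ube2g2 (chromosome 10, 77622275 to 77645993) acts with ligases of the endoplasmic reticulum that dispose of misfolded proteins. It was at 28.2, 25.9 and 27.1 FPKM in beta-Gal and at 38.1, 34.5 and 33.5 FPKM in HuR. It rose by 0.37 (SE 0.06, adjusted p = 0.00282). The ratio of Ube2g1 to Ube2g2 was 0.609, 0.682 and 0.685 in beta-Gal and 0.244, 0.261 and 0.246 in HuR. This pair was set side by side after its values were seen, and the ratio is given without a test. Ube2g2 starts 3943 bp after the end of Sumo3 on the same strand, and Sumo3 changed in the other direction, from 17.7 to 12.9 FPKM. A further gene model named Sumo3 overlaps Ube2g2 on the same strand and is listed at 0 in both groups, so the level of Ube2g2 is uncertain.

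The other enzymes for proteasome-directed chains fell. Ube2k, which can build such chains without a ligase, was at 12.6, 12.04 and 12.1 FPKM in beta-Gal and at 9.85, 9.60 and 10.1 FPKM in HuR. It fell by 0.29 (adjusted p = 0.00234). Ube2r2, a paralog of Cdc34 that serves the SCF cullin ligases, was at 22.2, 21.3 and 19.96 FPKM in beta-Gal and at 17.9, 18.3 and 18.6 FPKM in HuR. Groups of Ube2r2 did not overlap, and its fall of 0.20 had an adjusted p of 0.0162 (limma). That call ended without beta-Gal replicate 1 or 2 (adjusted p 0.0559 and 0.0567).

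Of the enzymes for signalling chains, Ube2n rose. Ube2n, known as UBC13, builds chains used in inflammatory and DNA damage signalling, and does so only as a dimer with UBE2V1 or UBE2V2. Ube2n (chromosome 10, 95515145 to 95545657) was at 12.8, 12.7 and 13.1 FPKM in beta-Gal and at 17.0, 16.6 and 17.2 FPKM in HuR. It rose by 0.37 (SE 0.04, adjusted p = 5.44e-04), a 31.4% higher mean. Ube2v2 was at 1.159, 1.22 and 1.09 FPKM in beta-Gal and at 0.559, 0.985 and 0.486 FPKM in HuR. It passed the filter through the beta-Gal libraries alone, so its direction is tied to the filter and its p-values cannot count as evidence of a fall. The difference of Ube2v2 was -0.37, with an adjusted p of 0.0537. That value was 0.0124 without HuR replicate 2, the highest of the HuR libraries for this gene. Ube2v1 had 15 to 29 reads per library and was not tested. Its locus overlaps the gene model Gm20431 on the same strand, which is listed at 0 in all libraries, so the level of Ube2v1 is uncertain.

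Of the DNA repair enzymes, Ube2b rose. UBE2A and UBE2B are the mammalian forms of yeast RAD6 and modify histone H2B and the replication clamp PCNA. Ube2b, the member with the highest FPKM in both groups, was at 48.6, 51.7 and 49.8 FPKM in beta-Gal and at 61.5, 56.7 and 56.8 FPKM in HuR. It rose by 0.22 (SE 0.05, adjusted p = 0.00931), and under TPM scaling the difference was 0.11 (adjusted p = 0.0523). Its paralog Ube2a was at 12.2, 12.4 and 12.6 FPKM in beta-Gal and at 12.9, 10.9 and 10.5 FPKM in HuR, with HuR replicate 1 above all others. In recovered reads, not scaled, Ube2a was at 464, 492 and 487 in beta-Gal and at 441, 417 and 372 in HuR. The place of HuR replicate 1 above the beta-Gal libraries thus depends on the deposited scaling. The difference of Ube2a did not pass (adjusted p = 0.26), but without HuR replicate 1 it was -0.20 (adjusted p = 0.0119). Its locus overlaps C330007P06Rik on the opposite strand, which was at 4.41 FPKM in beta-Gal and 3.22 FPKM in HuR, so its level is uncertain. Ube2t, the Fanconi anaemia pathway enzyme, had 4 to 15 reads per library. Ube2c, which starts chains for the mitotic ligase APC/C, had 0, 4 and 0 reads in beta-Gal and 5, 3 and 11 in HuR. Ube2s, which extends those chains, was at 4.25 to 4.83 FPKM in beta-Gal and 4.46 to 6.09 FPKM in HuR (log2 difference 0.14, adjusted p = 0.305). The Ube2s locus overlaps Rpl28, an abundant gene on the opposite strand, so its level is uncertain. Proliferation markers were scarce in these cells, with a summed FPKM of 1.08 to 1.28 over 7 genes in beta-Gal and 1.36 to 1.88 in HuR.

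Of the enzymes for ubiquitin-like proteins, Ube2l6 and Ube2z fell, and Ube2m and Ube2f were not called. Ube2l6, which carries the interferon-induced ISG15, was at 35.8, 35.5 and 34.1 FPKM in beta-Gal and at 30.4, 28.4 and 27.8 FPKM in HuR. It fell by 0.27 (SE 0.05, adjusted p = 0.00338), and the groups did not overlap. Ube2z, which is charged by the activating enzyme UBA6, fell from 30.3 ± 0.263 to 26.3 ± 0.472 FPKM (SD, n = 3 each; limma adjusted p = 0.00457). Ube2m was at 36.6, 37.2 and 35.5 FPKM in beta-Gal and at 39.0, 34.9 and 36.1 FPKM in HuR, and Ube2f was at 5.91 to 6.53 and 5.80 to 6.48 FPKM. Their log2 differences were 0.01 (SE 0.05) and -0.01 (SE 0.06), with adjusted p of 0.91 and 0.934, and the sign of each turned under other scalings.

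Among the membrane-bound and remaining enzymes, Ube2j1 and Ube2q2 fell. UBE2J1 and UBE2J2 are anchored in the membrane of the endoplasmic reticulum. Ube2j1 fell from 29.7 ± 0.820 to 26.1 ± 0.785 FPKM (SD, n = 3 each; limma adjusted p = 0.0124, but 0.052 without beta-Gal replicate 3). Ube2j2 was at 14.0 to 15.0 and 12.2 to 15.1 FPKM, and its difference of -0.10 did not pass (adjusted p = 0.325, but 0.0418 without HuR replicate 1). Ube2q2 was at 10.6, 11.3 and 11.8 FPKM in beta-Gal and at 8.01, 7.60 and 7.15 FPKM in HuR. It fell by 0.51 (SE 0.06, adjusted p = 8.22e-04), while its paralog Ube2q1 was at 7.51 to 8.81 and 8.63 to 8.96 FPKM with a difference of 0.11 that did not pass (adjusted p = 0.204). Ube2l3, the enzyme of HECT and RBR ligases, was at 36.8, 32.6 and 34.4 FPKM in beta-Gal and at 41.9, 39.9 and 33.1 FPKM in HuR. The groups of Ube2l3 overlapped, and its difference of 0.14 passed, among the alternatives run, without HuR replicate 3 alone (adjusted p = 0.262 with all libraries, 0.0298 without it). Ube2h, the enzyme of the CTLH ligase, and Ube2o, a large protein that combines conjugating and ligase activity, differed by -0.07 and -0.07 and did not pass (adjusted p 0.286 and 0.423). Ube2cbp was at 3.91 to 4.88 FPKM in beta-Gal and 2.86 to 4.08 FPKM in HuR (log2 difference -0.27, adjusted p = 0.113). Ube2u and Ube2ql1 had at most 8 reads in any library.

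**Figure D2:**
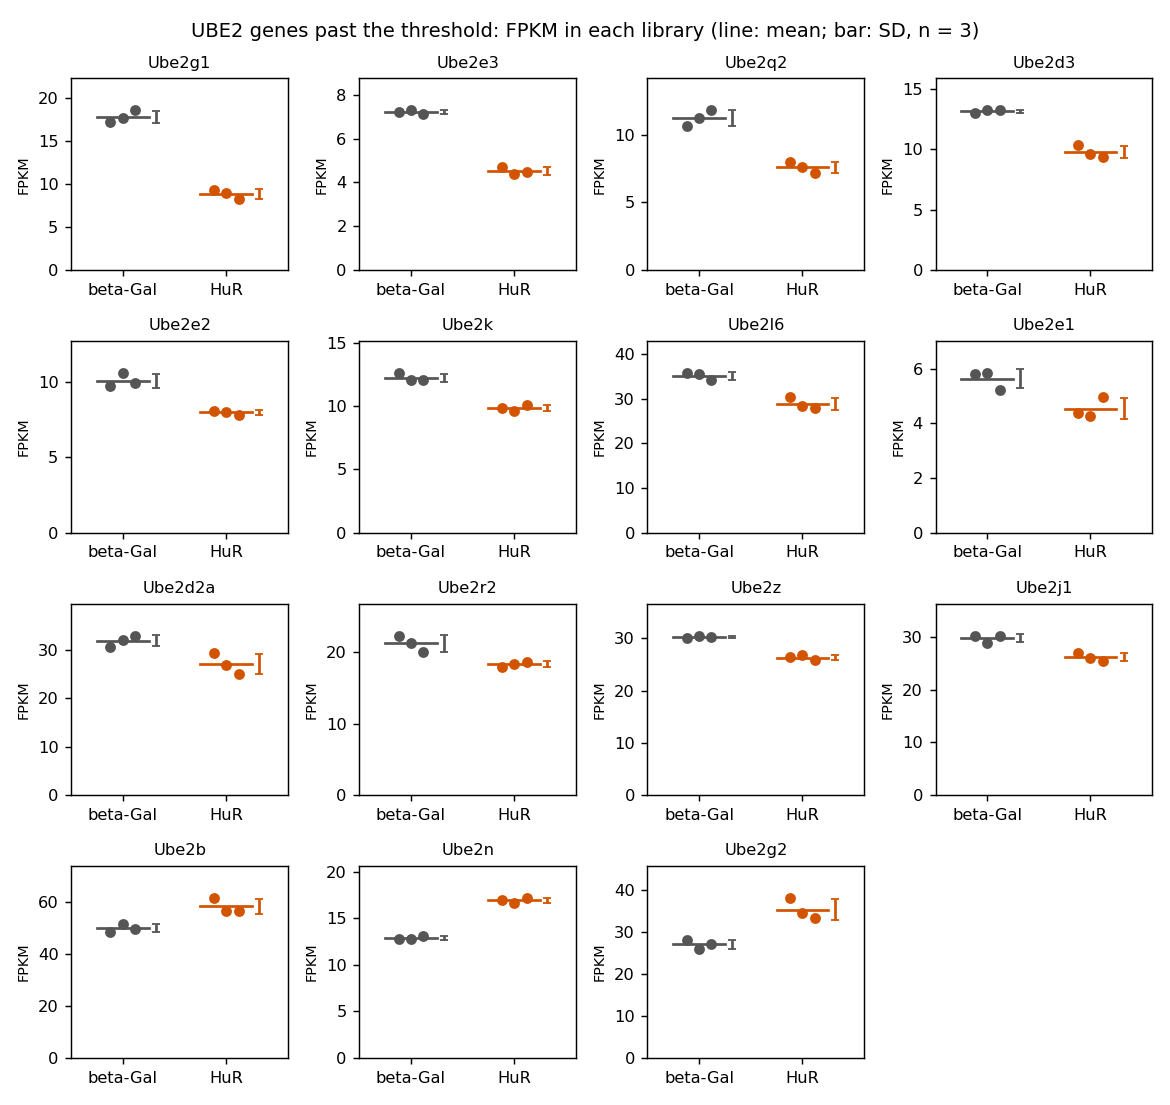
FPKM in each of the 3 beta-Gal (grey) and 3 HuR (orange) libraries for 15 UBE2 genes that passed an adjusted p of 0.05, ordered by log2 difference, with the mean (line) and SD (bar). In all 15 the 2 groups do not overlap, with Ube2g1 falling from 17.8 to 8.84 FPKM and Ube2g2 rising from 27.1 to 35.4 FPKM.

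The order of levels within the family was largely shared between groups. By mean FPKM, Ube2b ranked 1 in both, and Ube2m, Ube2l6 and Ube2l3 held ranks 2 to 4 in beta-Gal with means of 36.4, 35.1 and 34.6 FPKM, which differed by no more than about their SDs of 0.868, 0.890 and 2.07. In HuR, Ube2l6 dropped to rank 5, Ube2g2 moved from rank 8 to rank 4, and Ube2g1 dropped from rank 12 to rank 19. Ranks per length depend on the gene model. Ube2d3 had the most reads of all members, 5321 to 5644 in the beta-Gal libraries, but its deposited model is 24499 bp long. Divided by its representative transcript of 2493 bases instead, its beta-Gal mean would be 129 FPKM and not 13.1 FPKM, a length chosen after the data were seen. The FPKM ratio between groups does not depend on this length.

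Members that fell had longer loci and more A and T in their 3' UTRs than members that rose. The locus span had a median of 51.2 kb among the 12 that fell (11.5 to 321 kb) and 19.5 kb among the 4 that rose. The same order held among all tested protein-coding genes, with medians of 36.2 kb for 2655 that fell and 16.2 kb for 2020 that rose. Across the 29 members, Spearman's rho between span and log2 difference was -0.53 (Pearson's r with log10 span -0.45), against -0.25 (r = -0.23) across 9666 genes. The A and T share of the 3' UTR had a median of 61.7% in members that fell and 57.3% in those that rose, against 59.2% and 52.8% among tested protein-coding genes with a 3' UTR. Members not called had a median span of 40.0 kb, between the other groups. Their median A and T share was 52.9%, below both groups, so this share was not ordered by direction. Among genes not called, the medians were 20.2 kb and 54.4%, each between those of genes that rose and fell. Across the 28 members with a 3' UTR, rho with the log2 difference was -0.57 (r = -0.51), against -0.26 (r = -0.22) across 9540 genes. These correlations are across genes, which share the same 6 libraries and are not independent replicates. The 2 most opposed members follow this order, with 79.2 kb and 63.3% for Ube2g1 and 23.7 kb and 46.2% for Ube2g2, but Ube2n and Ube2b rose with 60.5% and 61.9%.

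**Figure D3:**
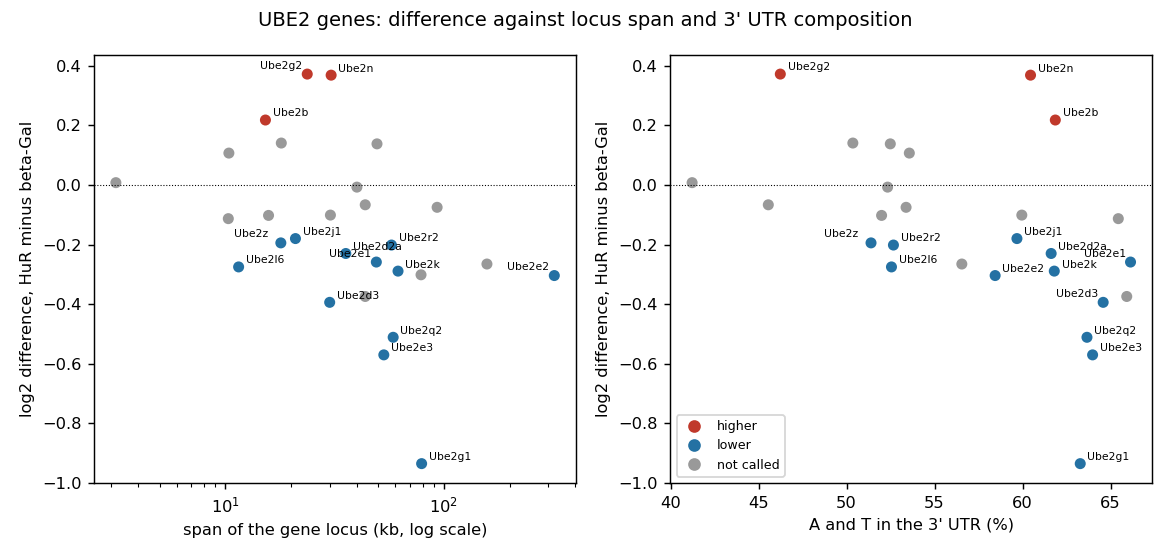
Log2 difference (HuR minus beta-Gal) of the tested UBE2 genes against the span of the locus in kb on a log axis (left, 28 genes) and the A and T share of the 3' UTR in percent (right, 27 genes). Genes that rose are red, genes that fell are blue and the others grey; Ube2g1, with a span of 79.2 kb, lies lowest at -0.93.

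Genes that work with the UBE2 enzymes also fell more often than they rose. The partners were 12 lists, chosen with earlier results of these data known, so their share is a description only. Of 147 tested genes, 22 rose and 73 fell (15.0% and 49.7%), with a median log2 difference of -0.16. Beside this stand 20.7% and 24.8% of all tested genes and 20.9% and 27.4% of protein-coding ones. Under TPM scaling 12 rose and 82 fell, beside 13.7% and 33.0% of all tested genes. Among 13 genes for ubiquitin and its relatives, 5 rose and 1 fell, with a median of 0.23. Nedd8 rose from 50.03 ± 0.927 to 60.0 ± 0.658 FPKM and Fau, a fusion of a ubiquitin-like protein with a ribosomal protein, from 325 ± 9.78 to 406 ± 19.5 FPKM. Sumo3 fell from 17.7 ± 0.313 to 12.9 ± 0.406 FPKM (SD, n = 3 each). The count that rose in this list was 2, 2 and 3 without beta-Gal replicates 1, 2 and 3, 3 without HuR replicate 3, 3 with no filter and 2 under TPM scaling, and 2 fell without HuR replicate 1. The median of this list was -0.01 without HuR replicate 1, 0.07 without beta-Gal replicate 1, 0.12 without HuR replicate 3, 0.13 under TPM scaling and with FPKM of at least 5, and 0.14 with quantile normalization.

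Of 10 genes for activating enzymes, 6 fell and 0 rose by limma. At an unadjusted p under 0.05, 2 were higher, and limma with voom on the recovered reads called 0 higher. Nae1 and Uba3, which together charge NEDD8, fell from 6.25 ± 0.566 to 2.98 ± 0.252 FPKM and from 13.8 ± 0.543 to 9.27 ± 0.799 FPKM (SD, n = 3 each). Mocs3 fell by 0.42 on the log2 scale. With median centring 2 of these genes rose and 5 fell, and with quantile normalization 1 rose and 6 fell. Of 21 tested genes for neddylation and cullin ligases, whose conjugating enzymes Ube2m and Ube2f were not called, 2 rose and 11 fell. Dcun1d4 and Dcun1d1, which help load NEDD8 on cullins, fell by 0.90 and 0.90, and Cul4b by 0.68. Of 12 genes for SUMO ligases and proteases, 3 rose and 6 fell, with Ranbp2, Senp6 and Pias2 falling by 0.76, 0.78 and 0.42. Under TPM scaling 0 of these SUMO genes rose, and likewise without beta-Gal replicate 2, beta-Gal replicate 3 or HuR replicate 2. Of the 3 tested ISG15 genes, 2 fell beside Ube2l6. Usp18, the ISG15 protease, fell from 38.5 ± 1.44 to 27.4 ± 0.937 FPKM. Uba7, the ISG15-activating enzyme, fell from 2.93 to 2.31 FPKM (limma adjusted p = 0.0152), a call that ended without beta-Gal replicate 1 or 2 (0.0515 and 0.059). In this list 0 rose by limma or by voom, and 0 were higher at an unadjusted p under 0.05.

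The ligases that work with the members included genes with a log2 difference beyond that of any tested member. Among 17 RING partners of UBE2A, UBE2B, UBE2N and UBE2T, 3 rose and 9 fell, with a median of -0.39. With FPKM of at least 5, 9 of these genes were tested, of which 3 rose and 4 fell, with a median of -0.10, and under TPM scaling the median was -0.59. Xiap, an inhibitor of caspases, fell from 12.8 ± 0.322 to 5.31 ± 0.0559 FPKM (limma log2 difference -1.13, adjusted p = 2.48e-05). Ubr1 and Ubr2, ligases of the N-degron pathway that pair with UBE2A and UBE2B, fell by 1.06 and 0.95 on the log2 scale. Among 16 ligase partners of UBE2D and UBE2E, 2 rose and 8 fell. The list holds RING and U-box ligases and also Nedd4, Nedd4l and Itch, whose domain class is HECT. Mdm2, the ligase of p53, rose from 32.7 ± 1.07 to 113 ± 25.1 FPKM, while Itch and Bmi1 fell by 0.87 and 0.70. Among 12 RBR ligase genes, which pair with UBE2L3, 1 rose and 8 fell. Rbck1 was the one that rose, by 0.59, and Ankib1 and Arih1 fell by 0.78 and 0.60. Of 11 genes of the CTLH ligase, the partner of UBE2H, 2 rose and 8 fell. Without beta-Gal replicate 2 or 3 or any HuR replicate, 1 rose. Likewise 1 rose under TPM scaling and quantile normalization, with a replicate block, with no filter, with no variance trend and by voom. Of the CTLH genes, Rmnd5a fell from 21.1 ± 0.747 to 8.99 ± 0.330 FPKM, and Wdr26 and Mkln1 fell by 0.79 and 0.59. The 2 that rose were Rmnd5b, by 0.34 (limma adjusted p = 0.00325), and Maea, by 0.11 (limma adjusted p = 0.0443).

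Of 14 genes for degradation at the endoplasmic reticulum, partners of UBE2G2 and UBE2J1, 8 fell and 0 rose by limma or by voom, and 0 were higher at an unadjusted p under 0.05. Sel1l and Rnf139 fell by 0.55 and 0.43, and Ufd1 by 0.23. Leaving out any beta-Gal replicate left 5 that fell, and 1 rose without beta-Gal replicate 2. Among 13 APC/C genes, 4 rose (2 of 9 tested with FPKM of at least 5) and 4 fell, with Cdc26 rising by 0.63 and Anapc1 and Cdc16 falling by 0.77 and 0.38. Among 8 genes with a conjugating-enzyme fold but another name, 3 fell and 0 rose by limma, with 2 higher at an unadjusted p under 0.05 and 1 called higher by voom. In the other limma fits, 2 rose with median centring and with protein-coding genes only. With quantile normalization, a replicate block or FPKM of at least 5, and without beta-Gal replicate 1 or 3, 1 rose. Birc6, a giant enzyme that combines conjugating and ligase activity, and Atg3, the conjugating enzyme of autophagy, fell by 0.71 and 0.31. Uevld fell by 0.32 (limma adjusted p = 0.0208), but its adjusted p was 0.0697 and 0.0617 without beta-Gal replicates 1 and 3, 0.0607 without HuR replicate 3 and 0.0564 with no filter.

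**Figure D4:**
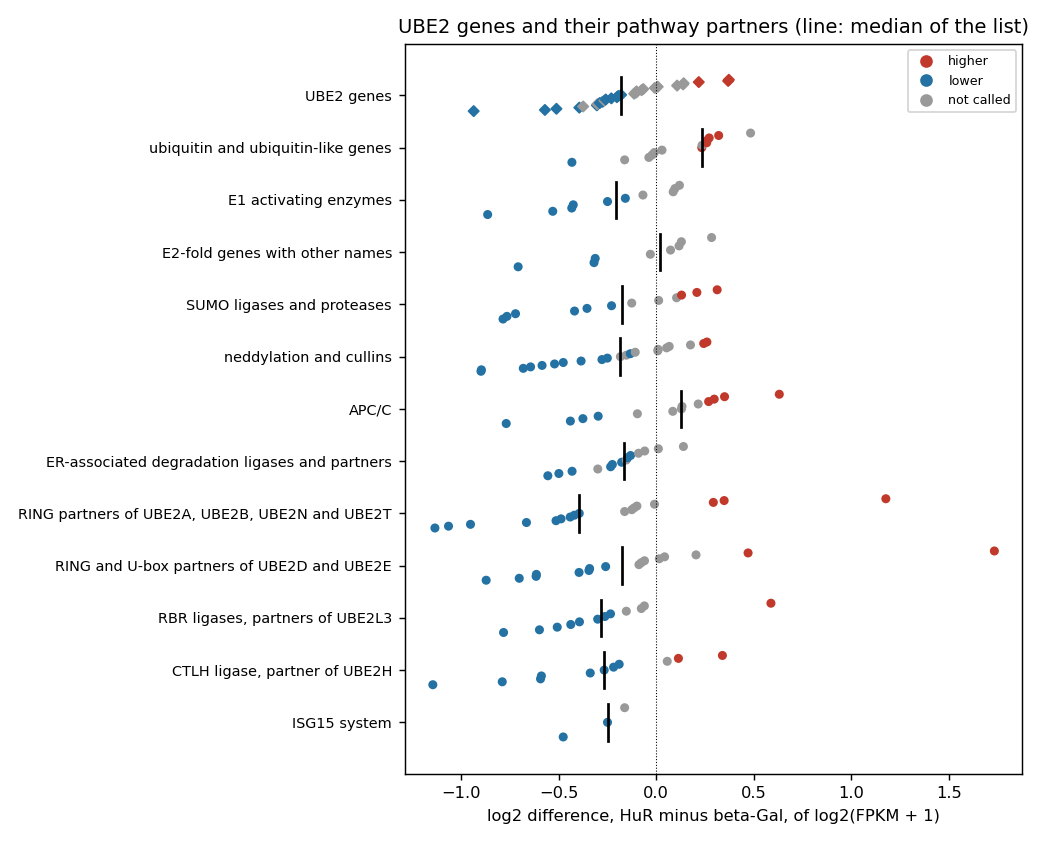
Log2 difference (HuR minus beta-Gal, of log2(FPKM + 1)) of the 147 tested partner genes (circles, in each list that holds them) and of 28 tested UBE2 genes (diamonds), with a black line at the median of each list. Red points rose, blue points fell and grey points did not pass an adjusted p of 0.05. Mdm2 lies highest at 1.73 and Rmnd5a is among the lowest at -1.14. The list labelled RING and U-box partners also holds the HECT ligases Nedd4, Nedd4l and Itch.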

How the data were processed

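RNA was sequenced in 6 samples, 3 per group, with groups and replicate numbers from the sample titles. FPKM per gene model was deposited by the authors. The submitters' processing notes list HISAT2 2.0.5, featureCounts 1.5.0-p3, DESeq2 1.16.1 and the build GRCm38.p6, without roles. FPKM times model length gave whole reads for all values (tolerance 0.001). In a 1-kb model, 3 reads correspond to 0.172 to 0.199 FPKM, which covers counting error only.

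Genes with FPKM of 1 or more in 3 or more libraries were tested with limma 3.58.1 (R 4.3.3), two-sided, after the transformation log2(FPKM + 1), with a variance trend and Benjamini-Hochberg adjustment over all tested genes. A pseudocount of 1 understates changes of low genes. The model held the group alone. Members and gene lists were chosen with earlier results of these data known. Counts and medians cover every member; the values of 1 member and of 1 marker gene are not reported here. Library values are given for up to 10 called members per direction and the 3 most abundant, and up to 3 called genes with the smallest adjusted p are named per partner list. Beyond these, Maea, Rmnd5b, the HECT genes and single hepatocyte markers were named after their values were seen. Other features named beside a member, such as a neighbour or an overlap, were chosen after their values were seen. Transcripts came from GENCODE M21 (GRCm38), matched by identifier for 9666 of 9696 tested protein-coding genes, taking the longest coding sequence and then the longest 3' UTR. Alternatives were other pseudocounts, filters, scalings, variance models, voom, protein-coding genes alone, a replicate block and leaving out each library. Voom used the library totals of the deposited FPKM. The fits were tested on simulated data.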

Additional observations from a re-analysis of the deposited data

How the results depend on the processing

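Of the 16 called members, 13 kept their call in all 11 alternatives other than left-out libraries, 12 in all 6 fits that left out 1 library, and 11 in both. Members that rose numbered 3 to 4 and members that fell 10 to 17 across the former, and 4 to 5 and 9 to 14 across the latter. TPM scaling moved the partner genes that rose from 22 to 12 and all tested genes that rose from 2334 to 1543. The median log2 difference of members was -0.29 with TPM scaling, -0.14 with median centring, -0.15 with FPKM of at least 5 and -0.10 with no filter. The sign turned for Ube2f with median centring (0.0348) and quantile normalization (0.0328), and for Ube2m with TPM scaling (-0.10) and quantile normalization (-0.0262). Without 1 library, the Ube2f log2 difference ran from -0.0398 to 0.0329 and the Ube2m log2 difference from -0.0368 to 0.0419. The cause was not tested. TPM scaling added calls for Ube2h (limma adjusted p 0.0157), Ube2a, Ube2j2, Ube2w and Ube2v2, and voom and protein-coding genes alone added Ube2w and Ube2v2. The added calls of Ube2v2 are tied to its passing the filter through the beta-Gal libraries alone. In deviations from the group means, correlations between same-numbered libraries were -0.03, 0.00067 and -0.01. With 3 libraries per group these values cannot show whether samples were paired, and the labels do not say. The highest value between any beta-Gal and HuR library was 0.03, for beta-Gal replicate 3 with HuR replicate 1. With a replicate block, 4 members rose and 10 fell, beside 18.5% and 21.9% of all tested genes. In that limma fit the adjusted p was 0.0604 for Ube2d2a and 0.0702 for Ube2e1. Few reads limit Ube2v1, Ube2d2b, Ube2u, Ube2t, Ube2c and Ube2ql1, which were not tested.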

Other observations

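Beside the protein-coding members, 33 other gene models carry a Ube2 name or are pseudogenes of the same domain class. Of these, 15 had no read in any library and 10 were tested. By limma 0 were called, and 0 had an unadjusted p under 0.05. Ube2n-ps1 was at 4.57, 4.37 and 7.15 FPKM in beta-Gal and at 5.79, 3.89 and 5.17 FPKM in HuR, so that its groups overlapped while Ube2n itself rose. Ube2d-ps was at 3.05, 3.25 and 3.72 FPKM in beta-Gal and at 2.53, 3.07 and 3.14 FPKM in HuR. Gm10705 varied widely within groups, at 8.31, 25 and 25.6 FPKM in beta-Gal and at 24.8, 16.5 and 55.8 FPKM in HuR. Reads of such copies can come from the parent gene where the sequences are near-identical, so these values are uncertain.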
